A study of Mus musculus with 8 samples.

Results

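The urea cycle and its neighbouring reactions of glutamine metabolism were described here by 10 genes, Cps1, Otc, Ass1, Asl, Arg1, Arg2, Nags, Slc25a15, Glul and Gls2, in AML12 cells with and without irisin. The rule that selects them names genes of nitrogen metabolism and uses no measured value. Their members on the array are all probes whose accession belongs to 1 of these genes, which gave 12 probes of 39429, since Otc and Ass1 have more than 1 probe each. AML12 is a line of mouse hepatocytes, and irisin is the peptide released from the membrane protein Fndc5. All 8 samples were grown in DMEM F-12 medium with 10% fetal bovine serum, 4 for 24 h with 0.5 µg/ml irisin and 4 for the same time without it (control). Their RNA was labeled with Cy3, and each sample was hybridized alone to 1 one-color Agilent array. The labels describe the control only as culture without irisin. Whether the replicates of a group came from separate cultures is not given in the sources used here, so the p-values measure the spread between these samples, which may be technical.

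Hepatocytes remove ammonia in a pair of ways. Periportal cells feed it into the urea cycle, in which N-acetylglutamate made by Nags switches on the mitochondrial enzyme Cps1, Otc joins the carbamoyl phosphate to ornithine, Slc25a15 exchanges ornithine and citrulline across the mitochondrial membrane, Ass1 and Asl build and split argininosuccinate in the cytosol, and Arg1 releases urea from arginine. Pericentral cells bind the ammonia that is left to glutamate through glutamine synthetase, Glul, while the liver-type glutaminase Gls2 works in periportal cells and frees ammonia from glutamine. Arg2 is the mitochondrial arginase of many tissues outside the cycle.

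The AML12 arrays held signal for only some of these steps, and the promoters of 3 members are shown, Otc as a gene well above background on no array and Ass1 and Glul as genes above it on all. RefSeq promoters, windows of 300 bases around the start of a transcript on GRCm38.p6, were matched for 5 of the 10 members, Glul, Ass1, Slc25a15, Nags and Otc. The sequences are those of the plus strand at chrX:10252055-10252354 for Otc, chr2:31470020-31470319 for Ass1 and chr1:153899679-153899978 for Glul, with capitals for the letters of a GC box (GGGCGG or CCGCCC) and of a CCAAT box (CCAAT or ATTGG).
Otc: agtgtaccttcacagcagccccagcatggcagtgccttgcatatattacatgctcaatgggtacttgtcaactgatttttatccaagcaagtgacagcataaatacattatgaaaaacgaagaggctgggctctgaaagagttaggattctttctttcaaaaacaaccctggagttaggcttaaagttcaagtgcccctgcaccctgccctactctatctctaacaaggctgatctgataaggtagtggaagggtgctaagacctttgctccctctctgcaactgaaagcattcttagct
Ass1: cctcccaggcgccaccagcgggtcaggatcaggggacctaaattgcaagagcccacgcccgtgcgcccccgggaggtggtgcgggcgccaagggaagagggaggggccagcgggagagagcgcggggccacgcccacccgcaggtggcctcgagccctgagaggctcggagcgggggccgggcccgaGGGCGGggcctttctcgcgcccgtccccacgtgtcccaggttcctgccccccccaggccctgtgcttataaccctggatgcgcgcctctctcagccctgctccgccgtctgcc
Glul: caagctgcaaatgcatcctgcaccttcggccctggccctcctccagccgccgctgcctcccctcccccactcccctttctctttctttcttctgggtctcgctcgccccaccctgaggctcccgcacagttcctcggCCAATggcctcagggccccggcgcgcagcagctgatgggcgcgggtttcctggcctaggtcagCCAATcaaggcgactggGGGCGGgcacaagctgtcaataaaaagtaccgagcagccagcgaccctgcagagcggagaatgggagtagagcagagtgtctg

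The Otc promoter held 1 CpG and a GC content of 44.3%, against 27 and 74.0% for Ass1 and 17 and 64.3% for Glul. The medians over 32851 promoters of the same length were 7 CpG and 52.7%, and 5.43% of them held fewer CpG than Otc. A GC box was found once in Ass1 and once in Glul, a CCAAT box was found at 2 places in Glul, and the Otc window held neither. Over all promoters 35.7% held a GC box, 37.4% a CCAAT box and 13.6% the letters TATAAA or TTTATA, which are in none of these 3 windows. None of these motifs overlap each other in the windows printed here, and a match is a description of letters and not of binding. Of the matched promoters not printed, that of Nags, well above background on 7 arrays, held 14 CpG and a GC content of 57.7%. The windows of Slc25a15 held 15 and 51 CpG. A link between promoter letters and signal was not tested.

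The enzymes that start and end the cycle were near the array's background. Well above background is the scanner software's own mark that a spot exceeds the local background, and the lowest signal with that mark was 4.21 to 4.73 on an array, while negative control spots had a median of 0.988 to 1.01. Of the 12 member probes, 6 (50%) were well above background on all 8 arrays and 4 (33.3%) on none. Over all 39429 probes these shares were 57.9% and 32.1%.

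Cps1, the entry enzyme of the cycle, had processed signals of 1.49, 4.86, 5.91 and 4.30 on control arrays 1 to 4 and of 3.92, 5.36, 3.68 and 8.04 on irisin arrays 1 to 4. It was well above background on 2 arrays, control 3 and irisin 4, and the groups overlapped. Otc, the mitochondrial ornithine transcarbamylase, gave 1.04, 1.04, 1.01 and 1.45 in control and 2.85, 1.09, 1.82 and 1.07 with irisin at its single-spot probe. A second Otc probe is printed at 10 places of each array, and of its 80 spots 0 were well above background, with signals from 0.882 to 1.71 and a median of 0.991. The single-spot probe read above this on irisin 1 and irisin 3, but was not well above background there or on any other array.

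The arginases were also not well above background. Arg1, the cytosolic arginase that completes the cycle in liver, had processed signals of 0.886, 0.894, 1.47 and 1.27 in control and 1.92, 1.56, 1.70 and 1.74 with irisin. Arg2 had 1.05, 1.67, 1.38 and 1.09 in control and 1.55, 1.14, 1.77 and 2.65 with irisin. Neither was well above background on any array. The signal on each array was read on its own scale here, and the irisin arrays were brighter as a whole, with a 75th percentile of 682 to 850 against 372 to 534 in control. Cps1, Otc, Arg1 and Arg2 were not tested, because no probe of theirs was well above background on every array of either group. No fold change is given for them.

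**Figure D1:**
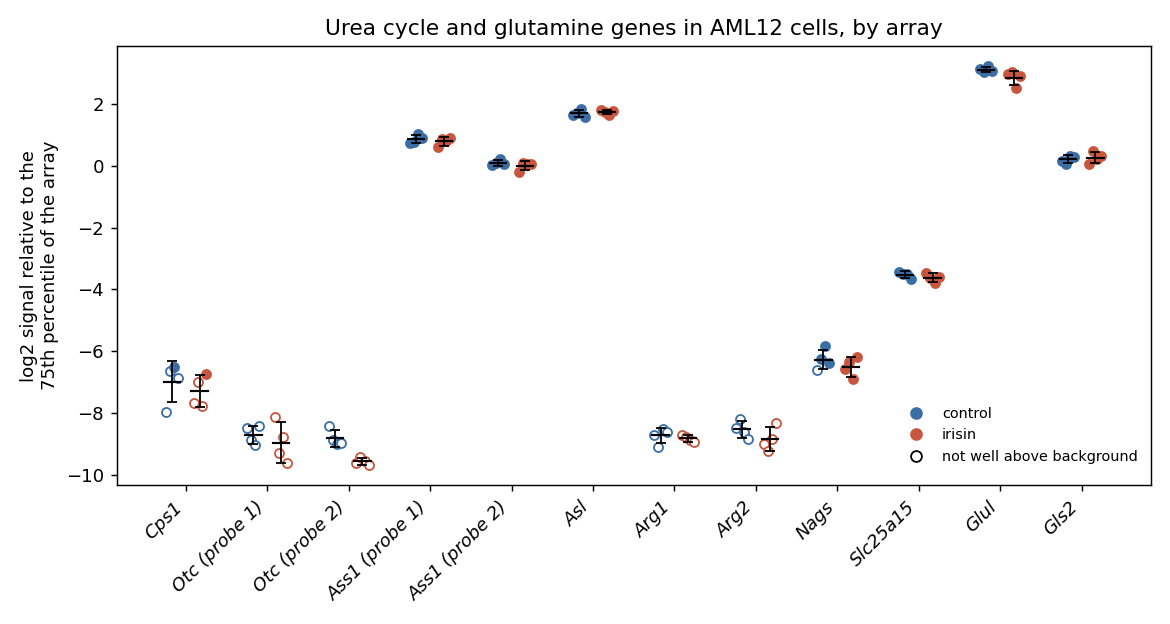
Each point is the log2 processed signal of 1 member probe on 1 array, relative to the 75th percentile of that array, for 4 control (blue) and 4 irisin (red) arrays, and bars show the mean and SD. Open points, which include all of Otc, Arg1 and Arg2, were not well above background, and levels cannot be compared between probes.

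The remaining 6 genes, with 7 probes, exceeded background on every array of control, of irisin or of both, and were tested. In the following, a level is the log2 of the processed signal minus the log2 of its array's 75th percentile, and a change is the irisin mean minus the control mean of these levels. A probe was called when its change was at least 1.5-fold with a Benjamini-Hochberg adjusted p under 0.05 in limma over all tested probes. None of the 7 member probes was called (0 of 7), where 2987 of all 24092 tested probes were, which is 12.4%. These 2987 were 172 higher (0.714%) and 2815 lower (11.7%) in irisin than in control. At an unadjusted limma p under 0.05 there was 1 member probe, that of Glul, against 8258 (34.3%) of all probes. A test of each probe on its own variance also called 0 member probes. The changes of the 7 probes ran from -0.26 to 0.047 with a median of -0.093, beside -0.080 for all tested probes. In these bulk samples less RNA per cell and fewer cells that carry it cannot be told apart.

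The control arrays lay on 1 slide and scan and the irisin arrays on another, so the treatment cannot be told apart from slide or scan. The calls also moved with brightness. When the tested probes were split into 10 equal bins by mean signal, the median change was -0.51 in bin 1, the dimmest, between -0.054 and 0.0021 in bins 4 to 9, and -0.20 in bin 10, the brightest. Bin 1 held 1088 of the 2815 lower calls and bin 10 held 54. Nags lay in bin 1, Slc25a15 in bin 4 and the other members in bins 6 to 9.

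Glul, glutamine synthetase, was not called. It had levels of 3.15, 3.03, 3.24 and 3.06 on control arrays 1 to 4 and of 2.97, 3.04, 2.54 and 2.90 on irisin arrays 1 to 4. The groups met at 1 pair of arrays, irisin 2 at 3.04 and control 2 at 3.03, and irisin 3 was the lowest of all. The means were 3.12 ± 0.0930 (SD, n = 4) in control and 2.86 ± 0.224 (SD, n = 4) with irisin. The change was -0.26 (SE 0.12, 95% interval -0.51 to -0.0029), with an adjusted p of 0.141 in limma and an exact two-sided permutation p of 0.0571. A design of 4 against 4 arrays allows an exact p no smaller than 0.0286. Without irisin 3 the change was -0.15, with an adjusted p of 0.332 in limma. The change is relative to the scaling of the arrays, and with spike-in scaling or no scaling, which move all probes up, it was 0.32 and 0.48.

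Gls2, the glutaminase that runs the opposite way, was also not called. Its levels were 0.18, 0.075, 0.33 and 0.30 in control and 0.059, 0.48, 0.22 and 0.32 with irisin, and the irisin arrays held both the lowest and the highest of the 8. The means were 0.22 ± 0.119 and 0.27 ± 0.176 (SD, n = 4 each), and the change was 0.047 (SE 0.11, 95% interval -0.19 to 0.28). Its adjusted p was 0.812 in limma and its exact permutation p 0.629. In fold terms the interval ran from 0.877 to 1.22, which leaves changes of 1.5-fold in either direction outside it under this scaling. Scaled to the spike-in controls and unscaled, the change was 0.62 and 0.78, and called, and the sign turned without control 2 (-0.0020) or irisin 2 (-0.023).

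The enzymes that make and split argininosuccinate were bright on every array. Asl, the lyase, had levels of 1.66, 1.70, 1.86 and 1.59 in control and 1.81, 1.76, 1.64 and 1.77 with irisin, so that all irisin arrays lay within the range of the control arrays. Its change was 0.043 (SE 0.087), and its fold interval was 0.902 to 1.18. The adjusted p was 0.784 in limma and the exact permutation p 0.514.

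Ass1, the synthase, was read by 2 probes. The first had levels of 0.75, 0.77, 1.03 and 0.89 in control and 0.60, 0.89, 0.81 and 0.91 with irisin. The second had 0.023, 0.087, 0.23 and 0.075 in control and -0.20, 0.095, 0.072 and 0.060 with irisin. The probes ordered the arrays alike at the ends, with irisin 1 the lowest and control 3 the highest at both, and the groups overlapped. Their changes were -0.059 (SE 0.10, fold interval 0.823 to 1.12) and -0.098 (SE 0.093, fold interval 0.809 to 1.08). The adjusted p in limma was 0.738 and 0.521, and the exact permutation p 0.571 and 0.400. Without irisin 1 the change of the first probe was 0.0077.

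Of the mitochondrial partners, the carrier was well above background on 8 arrays and the enzyme that makes the activator on 7. Slc25a15, the ornithine and citrulline carrier, had levels of -3.42, -3.48, -3.51 and -3.68 in control and -3.45, -3.63, -3.79 and -3.59 with irisin. The groups overlapped, and the change was -0.093 (SE 0.096, fold interval 0.810 to 1.09), with an adjusted p of 0.560 in limma and an exact permutation p of 0.343. The sign turned with quantile normalization and cyclic loess, where the change was 0.048 and 0.087, and with spike-in scaling and no scaling. A background correction built on the negative control spots gave -0.37 (adjusted p 0.0023 in limma), which was not called. The size and sign of the change thus depended on the processing.

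Nags, which makes the activator of Cps1, was well above background on 7 arrays and passed the filter through the irisin group, since control 1 was below. Its levels were -6.59, -6.26, -5.85 and -6.39 in control and -6.59, -6.34, -6.91 and -6.20 with irisin, from processed signals of 3.85 to 9.29 and 6.71 to 11.6. The change was -0.24 (SE 0.18, fold interval 0.642 to 1.12), the widest interval of the members, with an adjusted p of 0.417 in limma and an exact permutation p of 0.400. For this dim probe the processing set the direction. Quantile normalization gave 0.32, cyclic loess gave 0.31, and the change was -0.62 and called with a background correction built on the negative control spots (adjusted p 4.52e-05 in limma).

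**Figure D2:**
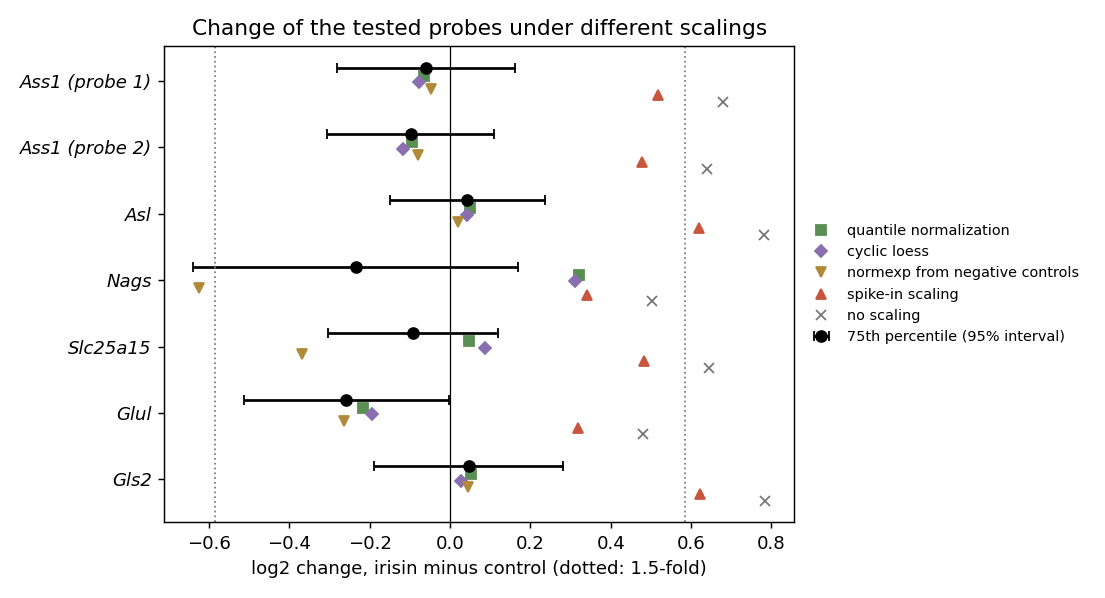
The log2 change from control to irisin of the 7 tested member probes is plotted with its 95% interval under scaling to the 75th percentile (black) and without interval under 5 other settings. The intervals of 6 of the 7 probes include 0, that of Glul ends at -0.0029, and with spike-in scaling or no scaling all 7 changes are above 0.

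Scaling changed the direction of several members together. The median change of all tested probes, -0.080 here, became 0.50 when the arrays were scaled to the spike-in controls and 0.66 without any scaling. These scalings move every probe alike, so a member's distance from the median, -0.18 for Glul and 0.12 for Asl, is the same in each by construction. Quantile normalization and cyclic loess can change it, and gave -0.23 and -0.21 for Glul and 0.040 and 0.027 for Asl. Scaled to the spike-in controls, 2 of 7 member probes (Asl and Gls2) were called higher, beside 7804 of all 24092 tested probes. Unscaled, 5 of 7 member probes were (both Ass1 probes, Asl, Slc25a15 and Gls2), beside 14920 of 24092. Without the filter on dim probes the second Otc probe, at -8.42 to -9.02 in control and -9.70 to -9.42 with irisin, was called lower, in a test that called 12750 of 39429 probes lower (32.3%). The processed signals of that probe were 0.994 to 1.08 in control and 0.998 to 1.07 with irisin, both at background.

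Several arrays lay above or below their group's mean for most members, some by more than the median change of the 7 probes, -0.093. Control 3 was above its group's mean for 6 of the 6 tested genes, by a median of 0.14, and irisin 4 also for 6 of 6, by 0.043. Irisin 2 was above it for 5 of 6, by a median of 0.13. Irisin 3 was below its group's mean for all but 1 gene, by a median of -0.14. The lowest Glul, Nags, Slc25a15 and Asl levels of the irisin group came from this array, and those of Ass1 and Gls2 from irisin 1.

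The other genes of nitrogen metabolism were read from 7 lists written from general knowledge, with 93 genes in all and the brightest probe for each gene. Of the 77 that were tested, 0 were called higher and 6 lower (7.79%), beside 1460 lower (10.2%) and 76 higher (0.531%) of all 14311 tested genes. The median change of the 77 was -0.080, and that of all genes was -0.064. All 6 called genes lay in bins 1 to 4 of signal, the dim end.

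Among 10 tested transporters 1 was called. Rhbg, an ammonia channel of pericentral hepatocytes, had levels of -5.27 to -5.02 in control and -7.22 to -6.42 with irisin, with no overlap, and fell by 1.52 on the log2 scale (SE 0.17, adjusted p 0.000169 in limma). It was well above background on all 4 control arrays and on 3 of the 4 irisin arrays, not on irisin 1, so it passed the filter through control, where it is higher. It lay in bin 1 of signal, and the size of its change depended on the scaling, at -1.06 after quantile normalization and -0.78 unscaled. The next largest changes of well measured transporters were not called. They were -0.34 for Aqp8, a membrane channel, -0.33 for the glutamate carrier Slc25a22 and 0.23 for the aspartate and glutamate carrier Slc25a12. Slc25a2, Slc38a5, Aqp9 and Slc14a1 were well above background on no array.

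The enzymes around glutamate were the best measured. All 13 genes of glutamate, proline and transamination were well above background on 8 arrays and 0 were called, with changes of -0.19 to 0.22. The extremes were Glud1, glutamate dehydrogenase, at -0.19, the transaminase Gpt2 at 0.22 and Oat, which turns ornithine to glutamate semialdehyde, at 0.20. Of 9 tested amidotransferases, which take nitrogen from glutamine, 0 were called. Asns, asparagine synthetase, came nearest with levels of 5.84 to 5.96 in control and 5.43 to 5.69 with irisin. Its change of -0.39 (SE 0.085, adjusted p 0.00603 in limma) did not reach 1.5-fold. Gmps was at 0.28 and Ppat at 0.20.

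Of 15 tested genes that use arginine or make polyamines, 3 were called lower and the median change was -0.14. The values over all tested genes were 10.2% called lower and a median of -0.064. The nitric oxide synthases Nos1 and Nos2 fell by 1.12 (SE 0.13, adjusted p 0.000201 in limma) and by 0.70 (SE 0.17, adjusted p 0.00969). Azin2, an antizyme inhibitor, fell by 0.94 (SE 0.22, adjusted p 0.00977 in limma). Azin2 lay in bin 1 of signal, Nos1 in bin 2 and Nos2 in bin 4. Azin2 was not called after quantile normalization (-0.41), after cyclic loess (-0.42), when scaled to the spike-in controls (-0.36) or unscaled (-0.20). Nos1 and Nos2 lost their calls when scaled to the spike-in controls (-0.55 and -0.13) and unscaled (-0.38 and 0.035). The groups did not overlap for Nos2 or for Nos1, whose levels were -4.74 to -4.27 in control and -5.92 to -5.43 with irisin. Those of Azin2 overlapped, with a lowest control level of -6.30 and a highest irisin level of -6.22.

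Amino acid breakdown gave 2 lower calls of 11 tested genes, with a median change of -0.12, beside 10.2% and -0.064 over all tested genes. Aass, the first enzyme of lysine breakdown, fell by 0.81 (SE 0.16, adjusted p 0.00422 in limma). Tat, tyrosine aminotransferase, fell by 0.77 (SE 0.10, adjusted p 0.000405 in limma). Aass lay in bin 2 of signal and Tat in bin 3. Neither was called after quantile normalization (-0.42 and -0.54), after cyclic loess (-0.39 and -0.50), when scaled to the spike-in controls (-0.23 and -0.19) or unscaled (-0.071 and -0.032). Amdhd1, of histidine breakdown, was at -0.41 (adjusted p 0.0122) and was not called. Of the 2 tested sirtuins 0 were called, Sirt5 at -0.098 and Sirt3 at -0.028, and the mitochondrial carbonic anhydrases Car5a and Car5b were well above background on no array.

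Transcription factors of liver genes were measured in 17 cases and called in 0, with a median change of -0.12. Hnf4a, a regulator of hepatocyte genes, was among them, and the most distant were Onecut1 at -0.40, Tcf7l2 at -0.29 and Ppara at -0.21. None of these 3 passed the adjusted p.

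**Figure D3:**
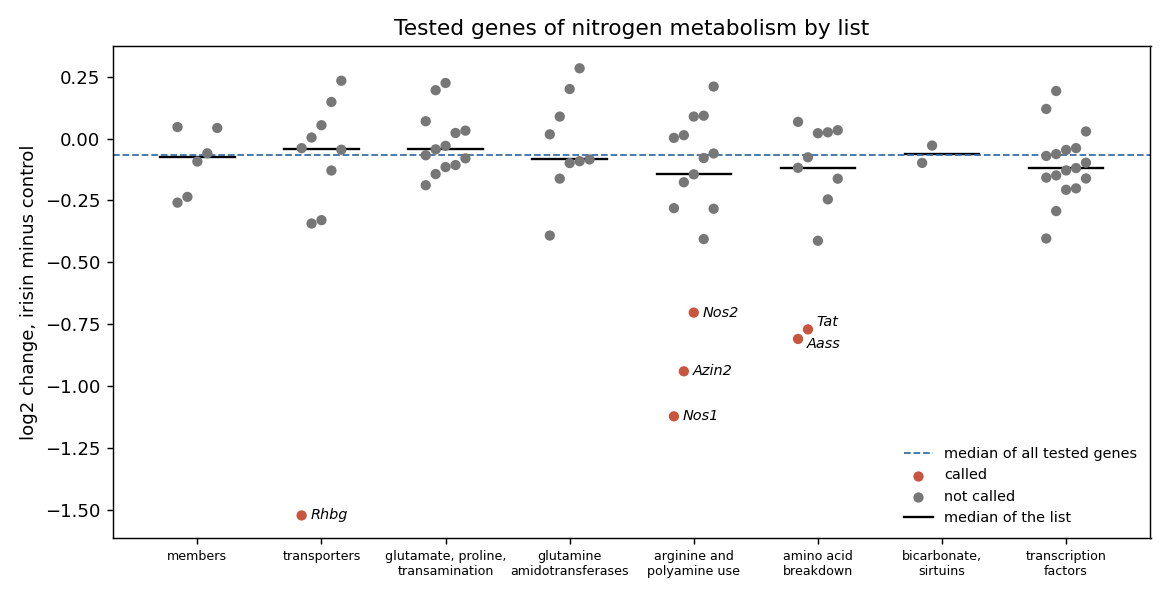
Each point is the log2 change from control to irisin of 1 tested gene, for the members and 7 lists, with the list's median (black line), the median of all tested genes (dashed) and called genes in red with their names. The 6 called genes are all lower with irisin, and no member is called. With no scaling Nos2 turns to 0.035, and the other 5 stay below 0.

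The label of a hepatocyte line was checked with markers. All 16 hepatocyte markers with a probe, Alb, Ttr and Hnf4a among them, were well above background on 8 arrays, and 2 of them were called lower, Tat and Asgr1 (-0.64). Alb, Ttr and Hnf4a lay in bin 10 of signal, as did the cholangiocyte marker Krt19. Others were dim, with Fgg in bin 2, Fga, Tat and Asgr1 in bin 3 and Apoa1 in bin 4. Of the 13 pericentral markers, whose zone also makes Glul, 7 were well above background on 8 arrays and Cyp1a2, Lgr5, Nkd1 and Sp5 on none. Of the 9 periportal markers 6 were on 8 arrays, with Cyp2f2 on none and G6pc called lower (-0.73). Of other cell types, 5 of 7 cholangiocyte markers, 1 of 8 stellate, 3 of 7 macrophage and 2 of 6 endothelial markers were well above background on 8 arrays. Marco (-1.21), of 3 tested macrophage markers, and Pecam1 (-0.61), of 2 tested endothelial markers, were called lower. The called markers, with Rhbg among the pericentral ones, all lay in bins 1 to 3 of signal, the dim end. Over all tested genes 10.2% were called lower. The calls of Tat, Asgr1, G6pc and Pecam1 were lost after quantile normalization, after cyclic loess, when scaled to the spike-in controls and unscaled, and that of Marco unscaled (-0.47).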

How the data were processed

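RNA of 4 control and 4 irisin samples of AML12 cells was measured on one-color Agilent arrays, and samples were grouped by their deposited labels. The authors scanned the arrays with Feature Extraction 12.0.3.1 and deposited the processed signal intensity of each spot on a linear scale, after background subtraction. Their methods name no normalization between arrays. The deposited value table equals the mean processed signal of a probe, within 0.000500%. The precision is limited by the number of arrays.

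From 43020 spots that are not controls on each array, spots marked as outliers (at most 0.463%) were left out, and spots of a probe were averaged. Each log2 intensity was centred on the 75th percentile of its array. Accessions were looked up in the RefSeq table of GRCm38.p6, which matched 28663 of 39429 probes (72.7%) to 21612 genes. The files give probe positions on another build, which are not printed. The positions of the 3 promoters are those of the RefSeq promoter table on GRCm38.p6.

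The groups were compared in R 4.3.3 by limma 3.58.1, through lmFit and eBayes. The 24092 probes tested exceeded background on every array of control, of irisin or of both. Called probes had at least a 1.5-fold change and a Benjamini-Hochberg adjusted p under 0.05. For single probes an exact permutation test, two-sided, was added. Alternatives were other background corrections, scalings, filters, the test of the methods, the deposited value table, a replicate block and leaving out each array. On simulated data of this comparison with 24092 probes, 98.1% of 2-fold and 100% of 3-fold changes were recovered and 4 unchanged probes were called. The simulated noise was independent between probes, with no shift by slide or brightness, and changes of 1.5-fold were not simulated. These figures therefore check the code and do not give the error rate or power of the real comparison. Named genes are all 10 members, called genes of the lists and at most 3 others per list with the largest change among those well above background on all 8 arrays. Genes named only because they were well above background on no array, and Hnf4a, Alb, Ttr, Krt19, Fgg, Fga and Apoa1, were chosen after their values were seen. Though the rule for the members uses no values, the members and lists were chosen with earlier results of these data known. Tables and plots were made with Python 3.11.15, pandas 2.3.3 and matplotlib 3.10.9.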

Additional observations from a re-analysis of the deposited data

Results flagged for a closer look

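At the second Ass1 probe, irisin 1 had a level of -0.20, apart from the other 3 irisin arrays at 0.060 to 0.095, and its gap to the nearest of them was 0.881 of the range of the group. It was the 1 value that stood apart in this way among 24 groups of 4 arrays, and chance gives about 1 in 20. The first Ass1 probe was also lowest on this array, at 0.60.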

How the results depend on the processing

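The number of called probes, 2987 here, was 1691 (670 higher, 1021 lower) after quantile normalization, 1619 (692 and 927) after cyclic loess, 8166 (7804 and 362) when scaled to the spike-in controls, 15082 (14920 and 162) unscaled, 12934 (184 and 12750) without the filter on dim probes and 5909 (713 and 5196) by the adjusted p alone. It was 2790 to 3438 with 1 array left out. Higher calls were 353 without irisin 2 and 103 without irisin 3, against 172. Of the 7 tested member probes 0 were called, but 1 (Nags, lower) with normexp from the negative controls, which was chosen after seeing the data. When scaled to the spike-in controls 2 of 7 were called (higher) and unscaled 5 of 7 (higher), beside 7804 and 14920 of 24092 tested probes. Without the filter 1 of 12 (Otc) was called lower, beside 12750 of 39429 probes. Called genes of the 7 lists were 6, but 3 after quantile normalization, 3 after cyclic loess, 24 (23 higher) when scaled to the spike-in controls and 54 (53 higher) unscaled.

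With spike-in scaling and no scaling the changes were 0.52 and 0.68 for Ass1, 0.48 and 0.64 at its second probe, 0.62 and 0.78 for Asl, 0.34 and 0.50 for Nags, 0.48 and 0.65 for Slc25a15, 0.32 and 0.48 for Glul, and 0.62 and 0.78 for Gls2. With quantile normalization and cyclic loess, Nags was at 0.32 and 0.31 and Slc25a15 at 0.048 and 0.087. With normexp from the negative controls Nags was at -0.62 and Slc25a15 at -0.37. With no scaling, Nos2 was at 0.035, G6pc at 0.010, Asgr1 at 0.094 and Pecam1 at 0.13. Of 7 alternatives, the 5 scalings, the deposited value table and normexp from the negative controls, Rhbg was called in 7, Nos1 and Nos2 in 5, and Azin2, Aass and Tat in 3. The causes were not tested. Values from the deposited value table, centring on the median of well measured probes, the stricter filter (which removed Nags), marked spots kept, the intensity trend with robust estimation and the mean of both Ass1 probes left the direction of each tested member as it was and called none of them.

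With 1 array left out, the change was -0.32 to -0.15 for Glul, 0.0044 to 0.096 for Asl, -0.096 to 0.0077 for Ass1 (0.0077 without irisin 1), -0.13 to -0.029 at its second probe, -0.023 to 0.12 for Gls2 (-0.0020 without control 2, -0.023 without irisin 2), -0.34 to -0.093 for Nags and -0.15 to -0.036 for Slc25a15, and 0 members were called. After each group's mean was removed from every tested probe, same-numbered arrays correlated at 0.11, -0.35, -0.13 and 0.17. Pairing by replicate number was thus not seen, but these values cannot exclude it, since the groups lay on different slides. With the replicate block 3004 probes and 0 members were called.

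Planned normexp on the spot signals was not used for these counts. Its fit put the background mean at -306 and -395 on irisin 2 and irisin 4, against -10.7 to -8.06 on the others, and it called 0 of 24092 probes (4104 at an unadjusted limma p under 0.05). Signal over background limits Cps1, Otc, Arg1, Arg2 and Nags, for which a change was not detectable or rests on few units of signal.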
